A study of Caenorhabditis elegans with 2 samples.

Results

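The spliceosomal small nuclear RNA (snRNA) genes and the spliced leader genes of Caenorhabditis elegans were examined for binding of CEH-45, a homeodomain protein of the goosecoid class. The members were all nuclear genes of Ensembl biotype snRNA, together with the genes whose symbol starts with sls-, which gave 130 of the 46890 nuclear genes of the annotation. The biotype covers 129 of them, and the remaining one, sls-2.19, is annotated as a pseudogene. The 31 sls- genes were 12 sls-1 genes, which encode the SL1 leader, and 19 sls-2 genes, which encode the SL2 leaders.

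Both libraries came from chromatin immunoprecipitation followed by sequencing (ChIP-seq) of whole late embryos, aged 2 hours per the labels and obtained by bleaching. The strain was RW12292, in which genome editing inserted TY1, EGFP and 3xFLAG into ceh-45 (allele st12292 on chromosome I). Precipitation was through the GFP tag, from all cells of the embryo at once. There was 1 group with 2 biological replicates, so no conditions could be compared, and the values below compare genes with genes and lists with lists. The deposited peak lists hold no read counts, and sequencing depth is therefore unknown. A candidate is any peak of a ranked list with its summit within 250 bp of the gene. A passing peak is one of the authors' larger thresholded set, whose peaks have an irreproducible discovery rate (IDR) of at most 0.01, and signal is the authors' peak value, which can be compared within a list only.

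The spliceosome removes introns with 5 snRNAs. U1 pairs with the 5' splice site, U2 pairs with the branch point, U4 holds U6 in an inactive pairing, U5 contacts the exon ends, and U6 forms the catalytic centre. In nematodes a further reaction, trans-splicing, joins a leader from an SL RNA to the 5' end of many mRNAs: SL1 goes to the first gene of an operon and to many single genes, and SL2 goes to downstream genes of operons. U6 genes are transcribed by RNA polymerase III from an upstream promoter with a TATA box, and the other spliceosomal snRNA genes by RNA polymerase II from a related promoter without one.

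The annotation names 0 of the 130 members U1 to U6. Classes were therefore built from sequence: genes linked by an identity of at least 70% were joined, and a family of at least 5 genes was given the type of a well-known word that at least 80% of its genes carry. The words are ACAGAGA of U6, ACTTACC of U1 (which faces the 5' splice site), GTAGTAT of U2 (which faces the branch point), CTTTTAC of the U5 loop and AGCTTTG at the 5' end of U4. This gave 24 U6-type, 13 U1-type, 19 U2-type, 5 U4-type and 12 U5-type genes. The other members were 10 smy genes, whose RNAs are known to associate with SL RNAs, and 16 genes of no such family. The gene of highest signal among the U1-type, U2-type, U4-type and SL1 genes, and the second highest of SL2, are each shown from the annotated start, with the class word in capitals, or for the leaders with the stretch before the first GTA, which holds the trans-spliced leader.
T08G5.11 (U1-type): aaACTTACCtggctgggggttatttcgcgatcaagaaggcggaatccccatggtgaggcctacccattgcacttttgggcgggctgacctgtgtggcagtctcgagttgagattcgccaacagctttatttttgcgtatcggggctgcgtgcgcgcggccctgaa
Y57G11C.35 (U2-type): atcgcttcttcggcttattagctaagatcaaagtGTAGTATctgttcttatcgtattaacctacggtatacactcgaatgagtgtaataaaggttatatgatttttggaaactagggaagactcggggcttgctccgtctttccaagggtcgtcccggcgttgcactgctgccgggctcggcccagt
C52E4.8 (U4-type): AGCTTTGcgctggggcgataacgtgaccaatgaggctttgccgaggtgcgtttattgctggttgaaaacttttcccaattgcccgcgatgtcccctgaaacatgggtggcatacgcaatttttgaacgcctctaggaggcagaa
sls-2.1 (SL2): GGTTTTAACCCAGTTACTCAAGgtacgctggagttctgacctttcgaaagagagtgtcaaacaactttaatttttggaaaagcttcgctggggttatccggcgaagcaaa
sls-1.12 (SL1): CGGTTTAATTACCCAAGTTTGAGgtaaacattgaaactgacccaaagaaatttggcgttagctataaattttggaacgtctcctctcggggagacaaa

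Passing peaks lay at 6 of the 130 genes, or 4.62% (exact 95% binomial interval 1.71 to 9.78, counting error only), against 1.66% of all nuclear genes. The 6 were 4 of the 24 U6-type genes (W05B2.8, C28A5.7, F54D8.7 and R07E5.16) and 2 of the 19 sls-2 genes (sls-2.4 and sls-2.9). None of the 87 remaining members had one, which is every U1-type, U2-type, U4-type, U5-type, sls-1, smy and unclassed gene. Candidates, in contrast, were as common as elsewhere: 77 members had one, or 59.2%, against 63.5% of all nuclear genes. The median highest signal was 28.6 over the members with a candidate and 27.8 over all nuclear genes with one. In median signal the members thus stood near the genome-wide level, and a small group of genes had high signal.

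**Figure D1:**
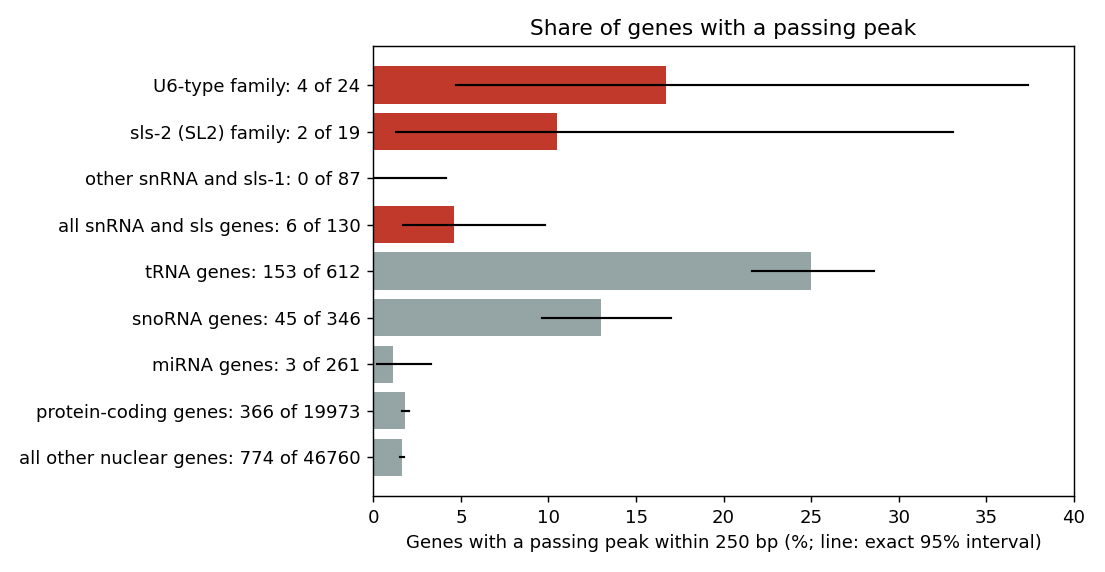
Share of genes with a passing peak within 250 bp (horizontal axis, percent) for snRNA and spliced leader classes (red) and for other gene classes (grey), with exact 95% intervals as black lines. The U6-type family stood at 16.7% and the sls-2 genes at 10.5%, beside 13.0% of snoRNA genes and 25.0% of tRNA genes. The intervals of 4.74 to 37.4% (U6-type) and 1.30 to 33.1% (sls-2) each include both of the latter shares.

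Other genes of small structural RNAs had passing peaks more often than the members as a whole. The share was 20.2% of the 978 tRNA, snoRNA and rRNA genes as 1 group, with 25.0% for tRNA genes, 13.0% for snoRNA genes and 0 of 20 for rRNA genes. It was 1.15% for microRNA genes and 1.83% for protein-coding genes. Because many tRNA and snoRNA genes carry peaks, members within 250 bp of a tRNA, snoRNA or rRNA gene were counted apart. Of the 119 members with no such neighbour, 5 had a passing peak, or 4.20% (exact 95% interval 1.38 to 9.53), against 0.693% of 44701 other nuclear genes with no such neighbour. The member lost in this count was sls-2.9.

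**Figure D2:**
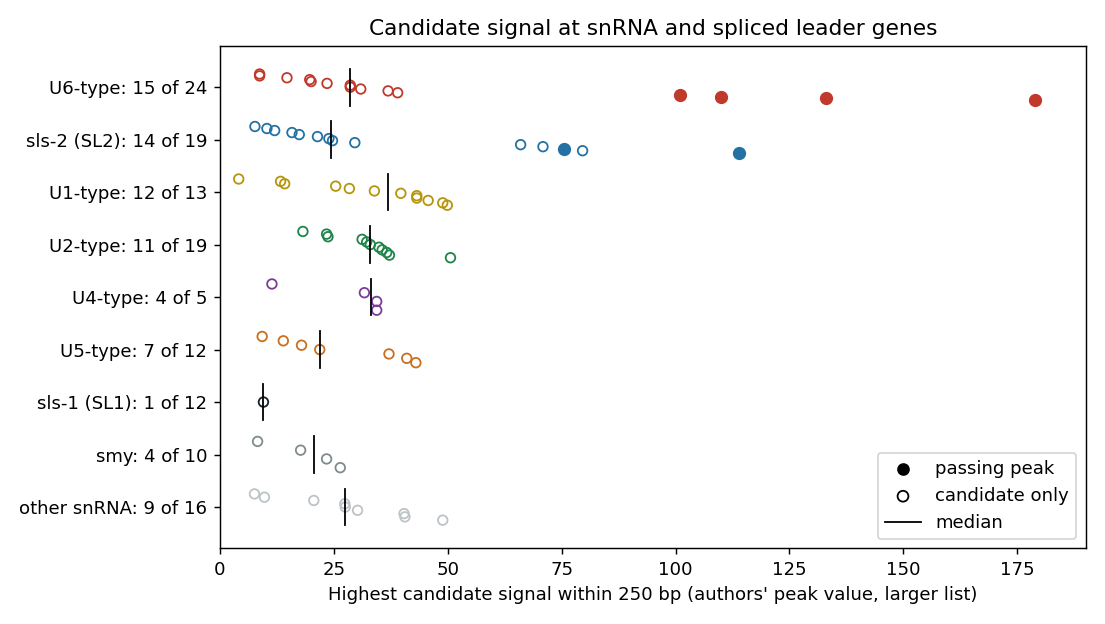
Highest candidate signal of the larger list (horizontal axis, authors' peak value) at each member with a candidate, by class, with filled points for passing peaks, open points for other candidates and a black line at the median. The row labels give members with a candidate of all members; the 4 U6-type genes from 101 to 179 and 5 sls-2 genes from 66.0 to 114 stand apart from the rest, which end at 50.6.

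The U6-type genes W05B2.8 and C28A5.7 held the highest signals among the members, followed by sls-2.4. W05B2.8 (chrIII:10989679-10989780, plus strand, ce11), in an intron of the dynein heavy chain gene dhc-4, had a signal of 179 in the larger list, 93.6 in replicate 1 and 76.5 in replicate 2. It ranked first among the members in all these lists, and 99.9% of all candidates of the larger list lay below it. C28A5.7 (chrIII:4426854-4426955, minus strand), in an intron of C28A5.6, had 133 in the larger list, 62.8 in replicate 1 and 73.3 in replicate 2. F54D8.7 (chrIII:5080798-5080898, minus strand) lies between genes and had 110 in the larger list, 63.3 in replicate 1 and 44.2 in replicate 2. All 3 of these genes were in the thresholded set of each replicate as well as in the larger and the conservative set.

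R07E5.16 (chrIII:4414185-4414286, plus strand), in an intron of the mitochondrial pyruvate carrier gene mpc-1, had a signal of 101 in the larger list, 56.3 in replicate 1 and 39.7 in replicate 2. It was in the set of replicate 1 with an IDR of 0.00261, and outside that of replicate 2 with an IDR of 0.0141. No tRNA, snoRNA or rRNA gene lay within 250 bp of any of these 4 genes or their summits. All 4 lie on chromosome III, which holds 7 of the 24 U6-type genes, while none of the 13 on chromosome IV had a passing peak.

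The remaining 20 U6-type genes had much lower signals. The 11 of them with a candidate ranged from 8.70 to 39.0 with a median of 23.5, and 9 had no candidate. Next below the 4 came K09C6.12 on chromosome V with 39.0 and an IDR of 0.280, then Y9C9A.111 on chromosome IV with 36.9 and an IDR of 0.515. No gene of the family had a signal between 39.0 and 101. Neither replicate's own list held a candidate at K09C6.12, and Y9C9A.111 had 17.8 in replicate 1 and 15.9 in replicate 2.

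**Figure D3:**
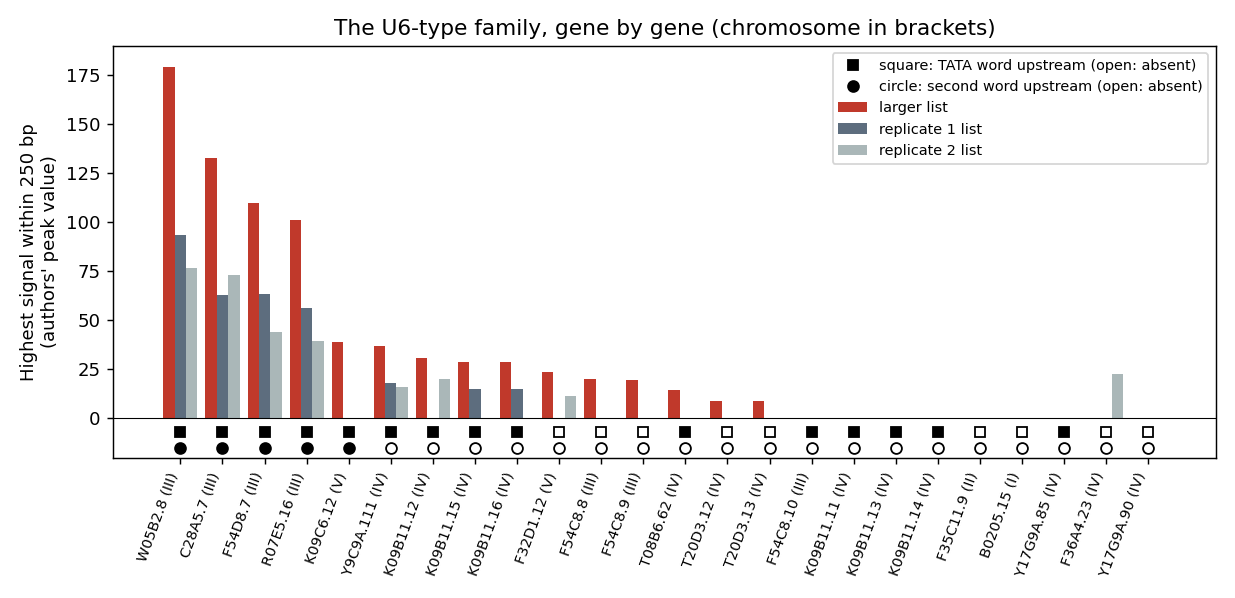
Highest signal within 250 bp (vertical axis, authors' peak value) at each of the 24 U6-type genes in the larger list and in the list of each replicate, with filled squares for TATATAA and filled circles for GTCTGC in the 100 bases upstream. Missing bars mean no candidate; the 4 highest genes carry both words, as does K09C6.12, and their bars are from lists that are each on their own scale.

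Copies with high and with low signal can be identical in sequence. The 102 bases of W05B2.8 recur letter for letter in 14 genes, among them C28A5.7 and R07E5.16. Of these 14 genes, 3 had a passing peak, 10 had a candidate, and the signals ran from 19.7 to 179. A second sequence, the 101 bases of F54D8.7, is shared by 3 genes, with a signal of 110 at F54D8.7, a signal of 14.7 at T08B6.62 and no candidate at Y17G9A.85. Gene bodies of identical copies hold no single-copy words of 31 bases, so a read inside one cannot be placed by its own letters, and how the authors placed such reads is not given in the sources used here. The flanks differ: in the 250 bp upstream, single-copy words made up 100% at W05B2.8 and F54D8.7, 88.6% at C28A5.7 and 89.1% at R07E5.16.

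Unique flanks were also present at U6-type genes with little signal. Of the 13 U6-type genes with at least 85% single-copy words upstream, 4 had a passing peak and 5 had no candidate at all. Y17G9A.85 and Y17G9A.90, both without a candidate, and T08B6.62 and Y9C9A.111 were at 100% upstream and 100% downstream. The copies in mam-3 on chromosome IV (K09B11.11 to K09B11.16) were lower, from 22.7% to 52.3% upstream, with a highest signal of 30.9. The part of unplaced reads in the low values was not tested.

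The sequence before the genes was then read, since the copies differ there. The 80 bases upstream of the U6-type genes that carry TATATAA and at least 85% single-copy words are shown on the gene strand, up to the base before the annotated start. Capitals mark TATATAA and, where present, GTCTGC; the first 4 genes have a passing peak and the other 5 do not.
W05B2.8: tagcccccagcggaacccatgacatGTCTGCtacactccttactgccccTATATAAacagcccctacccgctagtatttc
C28A5.7: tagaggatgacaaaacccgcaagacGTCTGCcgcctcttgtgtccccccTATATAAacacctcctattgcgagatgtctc
F54D8.7: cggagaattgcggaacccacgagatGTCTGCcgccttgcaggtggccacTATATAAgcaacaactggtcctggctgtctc
R07E5.16: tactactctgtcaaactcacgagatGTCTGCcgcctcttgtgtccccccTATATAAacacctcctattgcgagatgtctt
K09C6.12: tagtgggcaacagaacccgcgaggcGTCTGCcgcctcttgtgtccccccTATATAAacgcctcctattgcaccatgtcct
Y9C9A.111: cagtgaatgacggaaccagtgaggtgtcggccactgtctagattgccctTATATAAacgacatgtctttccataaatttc
T08B6.62: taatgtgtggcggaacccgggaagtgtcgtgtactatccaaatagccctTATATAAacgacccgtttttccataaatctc
F54C8.10: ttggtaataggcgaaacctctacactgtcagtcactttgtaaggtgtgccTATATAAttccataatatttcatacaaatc
Y17G9A.85: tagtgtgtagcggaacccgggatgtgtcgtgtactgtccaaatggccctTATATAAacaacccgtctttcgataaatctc

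TATATAA stood in the 100 bases upstream of 15 of the 24 U6-type genes, or 62.5%, against 2.43% of all nuclear genes (gene strand; 3.52% of all nuclear genes on either strand). It began 30 or 31 bases before the annotated start in each of the 15. Of these genes 4 had a passing peak and 10 had a candidate. Of the 9 genes without the word, 0 had a passing peak and 5 had a candidate, with a highest signal of 23.5. The shorter TATA between 40 and 15 bases upstream was in 17 U6-type genes, or 70.8%, against 15.4% of all nuclear genes. Outside the family it was in 2 of 13 U1-type, 1 of 5 U4-type, 1 of 12 U5-type, 1 of 19 sls-2, 1 of 10 smy and 3 of 16 unclassed genes, and in 0 of the U2-type and sls-1 genes.

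GTCTGC, a word chosen after the values were seen, began 55 bases before the start of W05B2.8, C28A5.7, F54D8.7, R07E5.16 and K09C6.12, and was in the upstream 100 bases of no other U6-type gene on either strand. Of the 5 U6-type genes with it, 4 had a passing peak, and the lowest signal was 39.0. Of the 19 without it, 0 had a passing peak, 10 had a candidate and the highest signal was 36.9. The word does not overlap TATATAA in these genes. It was in 1.13% of all nuclear genes on the gene strand and in 1.90% on either strand. On either strand it was in 7 of 19 sls-2 genes, or 36.8%, and in 0 of them on the gene strand. It also stood upstream of 10 of the 12 sls-1 genes, whose array is too repeated to be read. The unclassed gene M163.13 on chromosome X carries both TATATAA and GTCTGC, with 100% single-copy words upstream, and had a signal of 27.4 and no passing peak. In the U5-type gene C53D6.16 GTCTGC began 67 bases before the start, with 100% single-copy words upstream. C53D6.16 had no candidate in any list. Over the 100 bases upstream, C28A5.7 was 86.0% identical to K09C6.12, with a signal of 133 against 39.0, 80% identical to R07E5.16, with a signal of 101, and 66.0% identical to W05B2.8, with a signal of 179. T08B6.62, with a signal of 14.7, was 86.0% identical to Y17G9A.85, which had no candidate. Pairs of high identity thus held both like and unlike signals.

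By the highest signal of a class the sls-2 genes came next after the U6-type family. Their median of 24.3 was below the medians of the U1-type, U2-type, U4-type, U6-type and unclassed genes. It was above those of the U5-type, smy and sls-1 genes. sls-2.4 (chrI:4172206-4172315, plus strand) overlaps the ncRNA gene R12E2.18 and no protein-coding gene. It had 114 in the larger list, 81.1 in replicate 1 and 33.9 in replicate 2, and was in all 4 thresholded sets. sls-2.9 (chrI:13297877-13297985, plus strand) had 75.5 in the larger list, 45.6 in replicate 1 and 27.2 in replicate 2. Its peak reached the first bases of the gene, but the summit lay 144 bp upstream of the start and within 250 bp of the tRNA gene M01E5.t1. It was in the larger set and in that of replicate 1, and outside those of replicate 2 (IDR 0.428) and the conservative list (IDR 0.0107). Whether the peak belongs to sls-2.9 or to the tRNA gene cannot be told apart here.

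Just outside the larger set stood 3 more sls-2 genes. sls-2.1 (chrII:5844865-5844974, plus strand) had 79.6 in the larger list with an IDR of 0.0141, and 36.1 in replicate 1 and 48.5 in replicate 2. sls-2.2 (chrII:5543598-5543707, plus strand) had 70.9 with an IDR of 0.0471, and 38.0 in replicate 1 and 35.5 in replicate 2. sls-2.1 and sls-2.2 were both in the conservative set, with an IDR of 0.00298 and 0.00418. sls-2.8 (chrIII:12250465-12250575, plus strand) had 66.0 with an IDR of 0.0399 and was in none of the sets. A signal of 79.6 outside the larger set and one of 75.5 inside it, at sls-2.9, show that membership did not follow signal alone. The conservative set placed this pair the other way, with sls-2.1 inside and sls-2.9 outside.

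The other 14 sls-2 genes were low. The highest of them, sls-2.10, had a signal of 29.6, and 5 of the 14, all on chromosome IV, had no candidate. Over all sls-2 genes with a candidate the median was 24.3. Most sls-2 genes differ in sequence and are better resolved than the U6-type copies, with a median of 78.8% single-copy words in the gene and 100% upstream.

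The 80 bases upstream of sls-2.1, sls-2.2 and sls-2.8, which had high signals, are shown with those of sls-2.3, which lies beside sls-2.2 on the other strand. TTGCCTC, a word chosen after the values were seen, is in capitals, and sls-2.4, which also carries it, is not shown.
sls-2.1: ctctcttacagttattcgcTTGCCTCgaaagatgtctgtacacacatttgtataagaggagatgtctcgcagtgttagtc
sls-2.2: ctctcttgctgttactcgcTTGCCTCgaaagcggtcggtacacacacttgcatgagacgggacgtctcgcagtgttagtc
sls-2.8: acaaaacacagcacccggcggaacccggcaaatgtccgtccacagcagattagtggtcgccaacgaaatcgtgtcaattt
sls-2.3: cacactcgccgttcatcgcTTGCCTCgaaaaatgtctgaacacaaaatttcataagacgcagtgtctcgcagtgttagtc

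TTGCCTC was in 4 of 19 sls-2 genes and in 0.508% of all nuclear genes (0.823% on either strand). The 4 were sls-2.4, sls-2.1 and sls-2.2, with signals of 114, 79.6 and 70.9, and sls-2.3, with a signal of 7.67. Outside the class it was upstream of the U5-type gene F38E11.10, with 100% single-copy words upstream and a signal of 9.26. The word thus stood before genes of high and of low signal, while sls-2.8 and sls-2.9, with high signals, lacked it. TATATAA was in none of the 19. The most frequent word of 6 bases upstream of the sls-2 genes was TGTCGG, in 13 of 19 against 1.13% of all nuclear genes. TGTCGG was also in 43 of the 130 members as a whole.

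The RNA polymerase II snRNA classes had candidates of moderate signal and no passing peak in any of the 4 sets. Of the 13 U1-type genes 12 had a candidate, with signals from 4.11 to 49.9 and a median of 36.8. T27E4.12 and T27E4.22 overlap on the same strand and share a peak with a signal of 43.2, which is counted at both. T08G5.11 (chrV:14028471-14028635, minus strand) led with 49.9 and an IDR of 0.0336, with 33.6 in replicate 1 and 13.9 in replicate 2. sup-39, known from suppressor mutations of splice site defects, had 48.9 and an IDR of 0.0517. The microRNA gene mir-1831 lies inside sup-39 and shares this peak.

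Of the 19 U2-type genes 11 had a candidate, from 18.2 to 50.6 with a median of 33.0. The highest, Y57G11C.35 (chrIV:14764848-14765034, minus strand), had its summit 312 bp past the start and so outside the gene. Of the 5 U4-type genes, all on chromosome V, 4 had a candidate, from 11.4 to 34.4. Of the 12 U5-type genes 7 had one, from 9.26 to 43.0 with a median of 21.9. F07C6.5 (chrIV:12795584-12795705, plus strand), in an intron of pin-2, was the highest, with its summit 278 bp past the start and so also outside the gene. With 0 of 13, 0 of 19, 0 of 5 and 0 of 12 genes, the exact 95% upper limits of the share with a passing peak were 24.7%, 17.6%, 52.2% and 26.5%. Each limit exceeds the 16.7% of the U6-type family, but with so few genes per family this comparison cannot decide whether the families differ. The 87 members outside the U6-type and sls-2 classes had 0 passing peaks, with an exact 95% upper limit of 4.15%. These 87 are the members left after the classes with passing peaks are taken out, so their 0 followed from the grouping. Their limit therefore cannot be set against the lower limit of the U6-type family, which was 4.74%. All these limits hold counting error only, since genes are not replicates. The 87 include the sls-1 genes, which could hardly be read.

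The sls-1 genes could hardly be read from these lists. All 12 lie in a tandem array on chromosome V, from 17118154 to 17132107, which also holds 12 rRNA genes. Only 7.05% of the words of 31 bases in the 13954 bp of the array are single copy. The larger list held 7 candidates in it, and 1 sls-1 gene, sls-1.12 at its edge, had a candidate within 250 bp, with a signal of 9.54. Neither replicate's list had a candidate at any sls-1 gene. At this copy number a peak may not be detectable, and the low values are no measure of absence.

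The smy genes and the unclassed members had no passing peak. Of 10 smy genes 4 had a candidate, the highest being smy-9 with 26.4, although their median single-copy share was 100% in the gene and on both sides. Of the 16 unclassed genes 9 had a candidate, with a median of 27.5, led by mir-1831 with 48.9, F20D1.21 with 40.6 and W07G1.24 with 40.4.

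Some other upstream words were frequent in a class, and several were shared by classes. The 19 U2-type genes shared GTACAC (18 genes, against 1.08% of all nuclear genes), all 12 U5-type genes had AACCCG (0.970%), and 11 of 13 U1-type genes had ACCCGC (0.614%). AACCCG was also in 11 of 19 sls-2, 8 of 13 U1-type and 6 of 10 smy genes, and ACCCGC was also in 10 of 12 U5-type and 10 of 19 sls-2 genes. All 12 sls-1 genes had GCTCGC (0.565%), in a sequence that is repeated in the array.

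At the U6-type genes with a passing peak the summit lay on the gene itself. It was 24 bp past the start of W05B2.8, 17 bp at C28A5.7, 29 bp at R07E5.16 and 79 bp at F54D8.7, so 3 of the 4 stood in the first 29 bp. Of the sls-2 genes with the highest signals, sls-2.4, sls-2.1 and sls-2.2 had their summits inside the gene at 68, 34 and 74 bp, while sls-2.8 had its summit 69 bp upstream. Over all 77 members with a candidate 24 summits were inside the gene, 34 upstream and 19 downstream, and the median position was 24.0 bp past the start. For the 20 U6-type genes without a passing peak the summits of 11 candidates ran from -186 to 330 bp, and 2 of them were inside the gene. The position of a summit within a gene body that recurs elsewhere depends on how repeated reads were placed.

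**Figure D4:**
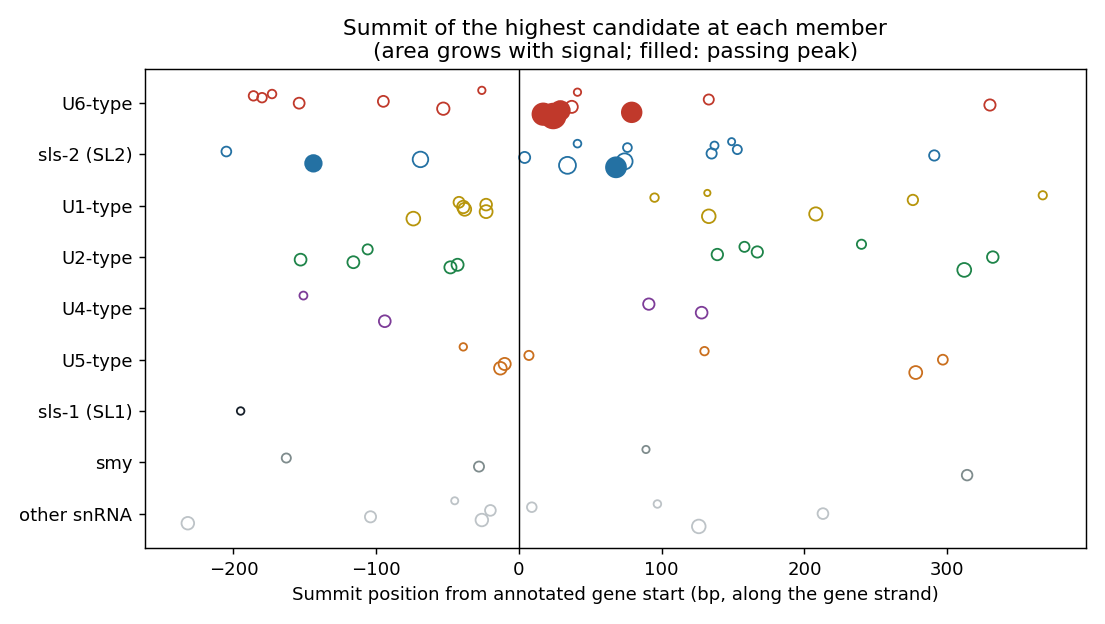
Summit of the highest candidate at each member (horizontal axis, bp from the annotated gene start along the gene strand; negative is upstream), by class, with area growing with signal and filled points for passing peaks. The 4 filled U6-type points lie between 17 and 79 bp, and the other classes scatter over the window.

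The few genes with high signal in the larger list were also among the highest members in each replicate, except sls-2.8 in replicate 2. sls-2.8 had 41.5 in replicate 1 and 23.1 in replicate 2, where its IDR was 0.917 and its rank 15. The larger list was made from both replicates, so this recurrence is not independent of the choice of genes. A high rank among the members did not always go with a low IDR in the replicate's own list. In replicate 1 the IDR was 0.902 at sls-2.2, 0.201 at sls-2.8 and 0.200 at sls-2.1. In replicate 2 it was 0.428 at sls-2.9 and 0.221 at sls-2.2. The set of replicate 1 held a peak at 6 members, against 0.932% of all nuclear genes, and the set of replicate 2 at 4 members, against 0.857%, a mean of 5.00 ± 1.41 (SD, n = 2). The 4 members of replicate 2 (W05B2.8, C28A5.7, F54D8.7 and sls-2.4) were all in replicate 1. The conservative set, whose peaks are at 1.48% of all nuclear genes, held 7 members: the 5 it shares with the larger set, and sls-2.1 and sls-2.2. In each replicate's ranked list W05B2.8 was at rank 1 and R07E5.16 at rank 5 among the members. sls-2.4 was at rank 2 in replicate 1 and rank 7 in replicate 2, and sls-2.1 was at rank 9 in replicate 1 and rank 3 in replicate 2. Candidates of any signal were found at 50 members in replicate 1 and at 46 in replicate 2, with 32 in both.

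**Figure D5:**
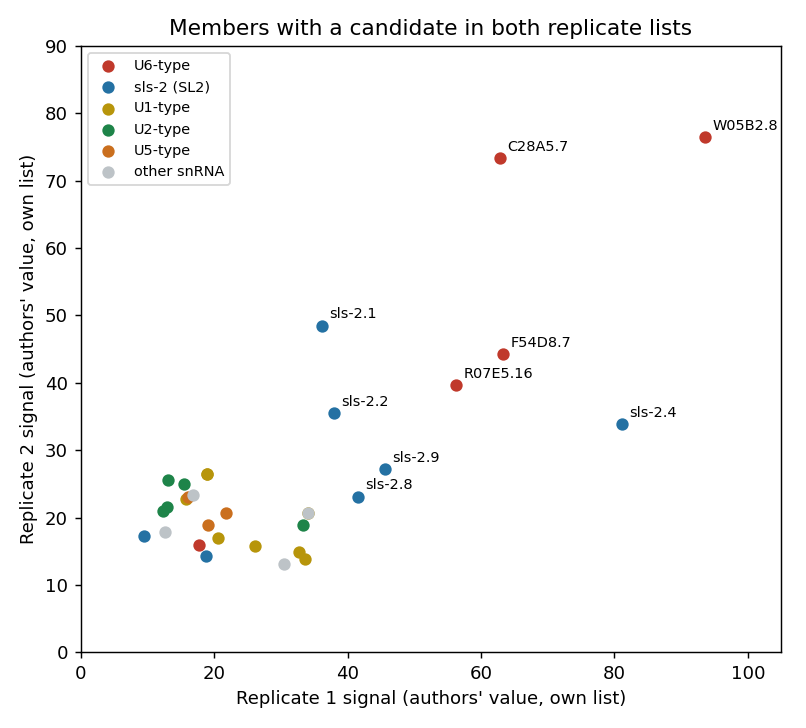
Signal of the highest candidate in replicate 1 (horizontal axis) and in replicate 2 (vertical axis), both authors' values in the replicate's own list, for the 32 members with a candidate in both, coloured by class. W05B2.8 and C28A5.7 are high on both axes, sls-2.4 is at 81.1 in replicate 1 and 33.9 in replicate 2, and most other members lie in the lower left corner.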

How the data were processed

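The deposited files are narrowPeak lists (build ce11) for 2 biological replicates: a larger and a conservative pair (ranked and thresholded) of both replicates together, and a pair for each replicate. Per the labels, chromatin was sonicated and fragments were 200 to 800 bp. Signal is the authors' deposited peak value, and how it was scaled for depth or against the control is not stated. The deposited ranked lists give the −log10 of the global IDR, from which the IDR was computed. The aligner is not given in the sources used here, nor is the peak caller. The control is not analysed here.

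All peaks fell within the chromosomes of the WBcel235 reference. Genes and biotypes came from Ensembl release 115, symbols from RefSeq (matched for 130 of 130 members), and sequences from the RefSeq genome WBcel235. A summit within 250 bp of the gene counted, and the highest signal was kept. Single-copy shares are the percent of 31-base words found once in the 6 nuclear chromosomes. Identity was from global alignment. Gene sequences of the U5-type and U6-type families are not reported here. No test was run, because there is 1 group and genes are not replicates. The labels do not say whether the biological replicates came from separate cultures. The gene assignment was tested on simulated peaks. The members, lists and words were chosen with earlier results of these data known. Named genes are those with a peak in any thresholded set, the 10 highest, the highest of each class and the 5 next outside the threshold; others were chosen after their values were seen. Alternatives were other windows, lists, IDR limits and subsets. Python 3.11.15, numpy 2.4.6, pandas 2.3.3, scipy 1.17.1, Biopython 1.88 and matplotlib 3.10.9 were used.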

Additional observations from a re-analysis of the deposited data

How the results depend on the processing

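The number of members with a passing peak was 6. It was 2 (W05B2.8 and C28A5.7) at an IDR of at most 0.001 and 10 at an IDR of at most 0.05, where sls-2.1, sls-2.2, sls-2.8 and T08G5.11 were added. With one replicate left out, using the other's own set, it was 4 to 6, and the number with a candidate was 46 to 50 instead of 77. The median highest signal of 28.6 moved to 27.9 with a window of 100 bp, 28.9 with 500 bp, 26.4 with the nearest summit and 27.4 with summits in single-copy sequence. The share of other nuclear genes with a passing peak, 1.66%, was 1.83% over protein-coding genes and 20.2% over tRNA, snoRNA and rRNA genes. The count of 4 U6-type genes with a passing peak was 4 with both other windows. Leaving out mir-1831, an alternative chosen after seeing the data, gave 6 passing and 76 candidate members. No paired analysis was possible because there is 1 group. The lists give no depth, so a gene without a candidate is not shown to be unbound, least of all in repeated sequence such as the sls-1 array.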
